A study of Mus musculus with 69 samples.

Results

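The regions described are 1108 of the 5651 Suz12 peaks listed for replicate 1 of EZH2-mutant mouse ES cells. They were chosen by a single rule, an overlap of at least 1 bp with a peak of the wild-type H3K27me3 list, and are called members. The other 4543 peaks of that list touch no H3K27me3 peak. The H3K27me3 list has 11884 peaks covering 94.2 Mb and was merged by the authors over wild-type ES cells and embryoid bodies of 4 and 8 days, so a member lies where the mark was called in at least 1 of those stages. Overlap with H3K27me3 is therefore not a result, and the replicate 2 lists, the other factors, gene starts and RNA were not used by the rule.

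The series compared CJ7 mouse ES cells, grown with LIF on a layer of mouse embryonic feeder cells, with embryoid bodies formed from them as hanging drops. Its 69 samples hold RNA-seq libraries and CUT&RUN, in which a nuclease tethered to an antibody cuts out the DNA bound by the target. Wild-type and EZH2-mutant cells (labelled mutant) were taken as ES cells at 0 days and as embryoid bodies at 4 and 8 days, with 3 RNA libraries in each of the 6 groups. A second set of CJ7 cells, with no mutation named, received 4 uM GSK343, an inhibitor of EZH2, from 3 days before differentiation to collection, or the solvent DMSO, with 2 RNA libraries in each of 6 groups. All mutant columns carry 1 code in the file headers, but the kind of EZH2 allele and the number of clones behind it were not found in the sources used here. Nothing in the labels tells separate cultures from repeat libraries, so p-values measure the spread between these libraries, which may be technical. No wild-type ES cell Suz12 list of replicate 1 was analysed here, and each Suz12 list named by a replicate comes from a single library, while the merged wild-type list pools the stages.

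Suz12 is a core subunit of Polycomb repressive complex 2 (PRC2), which also contains Eed and the enzyme Ezh2 and methylates lysine 27 of histone H3. Ring1B is the ubiquitin ligase of Polycomb repressive complex 1 (PRC1), whose Cbx subunits bind H3K27me3. In ES cells both complexes are known for occupying CpG-rich starts of developmental regulators, among them the Hox genes, which stay silent until differentiation.

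Where members met gene starts, the sequence there was mostly CpG-rich (67.1% of promoter windows, with a GC content over 50% and a CpG observed over expected ratio over 0.6). The share was 47.5% of windows at H3K27me3 without any peak of the list and 33.3% of all windows. The starts are shown because promoter windows are the sequences at hand. RefSeq promoter windows (assembly GRCm38.p6, the coordinates of mm10) of 300 bases overlapped a member in 301 cases, from 265 genes. Their median GC content was 63.7%, with a median of 20 CpG dinucleotides and a CpG observed over expected ratio of 0.74. Windows at H3K27me3 without any peak of the list (5420) had medians of 60.3%, 15 and 0.60, and all 32851 windows had 52.7%, 7 and 0.38. The 48 windows that overlapped one of the other peaks had medians of 50.5%, 5 and 0.24. The letters CGCG occurred in 75.1% of the members' windows and in 38.0% of all windows, and CCGCC or its reverse complement GGCGG in 82.7% and 48.8%. Windows at H3K27me3 without any peak of the list lay between, at 57.5% for CGCG and 68.6% for CCGCC or GGCGG. GAGA or TCTC was near the background, in 95.3% against 94.3%. CGCG and GAGA (TCTC on the other strand) were searched as written, motifs may overlap, and the matches are a description of the windows.

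The 250 bases before the start are shown, as the starts at the most recurrent regions, for the 5 coding genes with a single listed start whose window lay wholly inside a member found in all 3 ES cell Suz12 lists, taking the widest members first. CpG is in capitals, and each is printed 5′ to 3′ on the strand of its gene.
Cbx8: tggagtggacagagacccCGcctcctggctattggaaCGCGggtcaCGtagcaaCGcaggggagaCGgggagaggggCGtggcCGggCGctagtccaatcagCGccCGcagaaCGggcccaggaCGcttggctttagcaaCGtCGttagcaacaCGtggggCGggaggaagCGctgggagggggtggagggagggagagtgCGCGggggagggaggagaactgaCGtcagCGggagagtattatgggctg
Ebf3: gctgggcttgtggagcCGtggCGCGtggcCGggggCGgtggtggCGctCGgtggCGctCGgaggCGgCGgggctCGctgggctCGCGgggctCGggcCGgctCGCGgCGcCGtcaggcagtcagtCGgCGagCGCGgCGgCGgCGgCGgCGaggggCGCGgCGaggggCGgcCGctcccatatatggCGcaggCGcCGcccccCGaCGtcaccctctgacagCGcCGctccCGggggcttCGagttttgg
Hoxa9: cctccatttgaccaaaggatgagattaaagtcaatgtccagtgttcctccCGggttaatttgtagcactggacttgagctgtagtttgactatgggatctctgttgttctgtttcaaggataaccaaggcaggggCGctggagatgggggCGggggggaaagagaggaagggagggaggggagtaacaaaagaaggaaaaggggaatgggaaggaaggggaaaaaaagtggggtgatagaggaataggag
Hoxb8: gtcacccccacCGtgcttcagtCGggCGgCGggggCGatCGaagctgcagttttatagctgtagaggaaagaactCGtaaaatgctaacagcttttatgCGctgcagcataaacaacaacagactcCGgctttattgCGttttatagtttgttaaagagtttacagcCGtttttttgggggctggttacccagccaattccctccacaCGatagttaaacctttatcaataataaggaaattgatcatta
Zfp503: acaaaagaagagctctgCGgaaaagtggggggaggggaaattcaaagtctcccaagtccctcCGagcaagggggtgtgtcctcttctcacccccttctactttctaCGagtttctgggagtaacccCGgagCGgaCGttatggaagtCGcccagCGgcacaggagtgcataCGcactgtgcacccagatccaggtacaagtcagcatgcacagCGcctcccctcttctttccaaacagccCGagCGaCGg
The Cbx8 sequence lies at chr11:119040914-119041163 on the minus strand and holds 22 CpG, and that of Ebf3, at chr7:137314446-137314695 on the minus strand, holds 43. The Zfp503 sequence (chr14:21989602-21989851, minus strand) holds 13. The Hox starts were not uniformly CpG-dense, with 3 CpG before Hoxa9 (chr6:52227371-52227620, minus strand) and 12 before Hoxb8 (chr11:96281655-96281904, plus strand).

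For comparison, the same choice gave 10 genes whose window lay wholly inside a member of the smallest width, 501 bp. Most peaks of this list have that width. The 3 of these genes that are on the developmental lists are shown.
Eomes: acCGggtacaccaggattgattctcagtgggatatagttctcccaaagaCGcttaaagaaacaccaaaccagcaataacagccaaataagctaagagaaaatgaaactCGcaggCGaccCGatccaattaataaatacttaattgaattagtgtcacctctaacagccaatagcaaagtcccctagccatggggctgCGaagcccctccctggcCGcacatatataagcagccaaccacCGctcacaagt
Hoxd3: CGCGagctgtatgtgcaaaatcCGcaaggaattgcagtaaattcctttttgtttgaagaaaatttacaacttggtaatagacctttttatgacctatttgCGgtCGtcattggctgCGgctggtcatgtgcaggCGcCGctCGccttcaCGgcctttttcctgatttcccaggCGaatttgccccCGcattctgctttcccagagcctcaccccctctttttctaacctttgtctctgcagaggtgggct
Wnt9b: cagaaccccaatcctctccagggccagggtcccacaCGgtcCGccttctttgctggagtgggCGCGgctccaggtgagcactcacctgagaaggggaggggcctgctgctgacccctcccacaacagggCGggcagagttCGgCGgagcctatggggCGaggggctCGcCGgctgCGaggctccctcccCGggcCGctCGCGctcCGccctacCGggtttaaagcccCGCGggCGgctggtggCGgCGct
The Eomes sequence (chr9:118477939-118478188, plus strand) holds 8 CpG, that of Hoxd3 (chr2:74711743-74711992, plus strand) 12 and that of Wnt9b (chr11:103749822-103750071, minus strand) 22.

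Members were wider than the other peaks of their own list. A width of 501 bp was listed for 596 members (53.8%) and for 4192 of the others (92.3%). The 512 wider members had a median of 1368 bp and reached 14957 bp, 171 exceeded 2 kb and 52 exceeded 5 kb, while the widest of the others was 1430 bp. The single-library lists carry the same score in every row, so width is the one graded value they give. Of the members 1065 (96.1%) were wholly within an H3K27me3 peak, and a narrow interval chosen to touch a wide one will mostly lie within it. The centre of 742 members (67.0%) lay nearer to the middle of that peak than to its edge. At the edge of the rule, 2 members overlapped the mark by under 100 bp (the smallest by 23 bp), and 11 of the others lay within 100 bp of it, the nearest at 2 bp.

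The second mutant ES cell library recovered a minority of the members, and the widest ones most often. Its list has 7284 peaks, of which 403 (5.53%) lay at H3K27me3, against 19.6% in replicate 1. It overlapped 154 members, 13.9% (95% Wilson interval 12 to 16.1, counting error only), and 39 of the others, 0.858% (0.629 to 1.17). Those members met 201 peaks of replicate 2, 2.76% of its list. By width, the share of members found again was 1.17% of those at 501 bp, 12.6% up to 2 kb, 51.3% at 2 to 5 kb and 82.7% above 5 kb. A wider interval also has more room to overlap anything, and that share of the trend was not tested.

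The wild-type ES cell list of replicate 2 (8493 peaks, 317 or 3.73% at H3K27me3) overlapped 103 members, 9.30% (7.72 to 11.1), and 35 of the others, 0.770% (0.554 to 1.07). The 103 members met 1.21% of the peaks of that list. With 1 wild-type and 2 mutant ES cell lists there is no test of genotype, and the mutant and wild-type replicate 2 shares can only be set side by side. Both replicate 2 lists held 62 members, whose median width was 4969 bp. The mutant list alone held 92, the wild-type list alone 41, and neither held 913, of which 339 were wider than 501 bp.

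**Figure D1:**
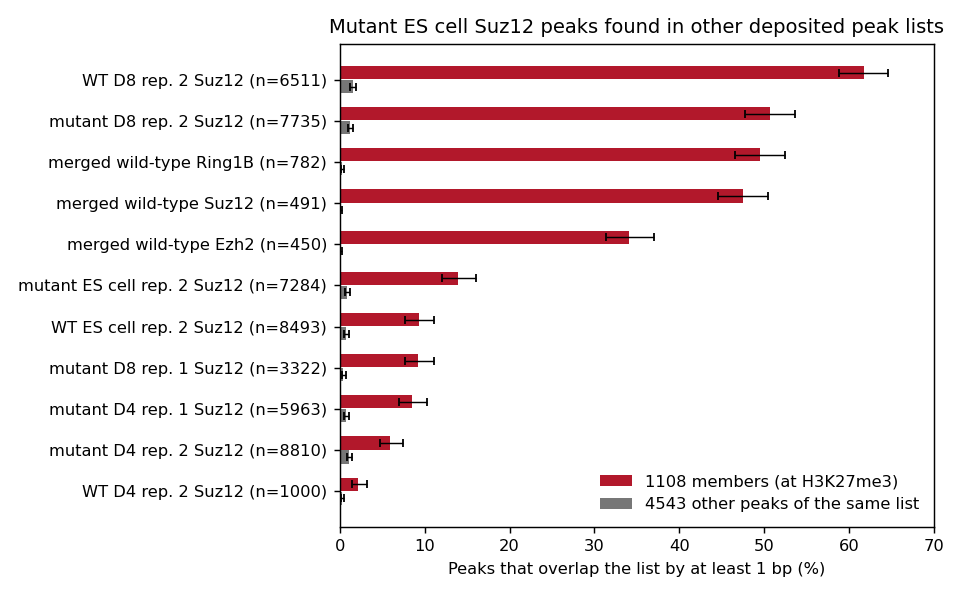
Share (%) of the 1108 members (red) and of the 4543 other peaks of mutant ES cell replicate 1 (grey) that overlap each deposited list by at least 1 bp, with 95% Wilson intervals and list sizes in brackets. The red bars run from 2.17% for wild-type day 4 to 61.7% for wild-type day 8, and the grey bars stay at or below 1.56%.

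Wild-type Polycomb lists of other factors covered many members and almost none of the other peaks. The merged Ring1B list (782 peaks) overlapped 548 members (49.5%) and 13 others (0.286%), and the merged Ezh2 list (450 peaks) 378 members (34.1%) and 4 others (0.0880%). The merged Suz12 list (491 peaks) overlapped 526 members (47.5%) and 6 others (0.132%). As shares of those lists, members met 35.0% of Ring1B peaks, 52.2% of Ezh2 peaks and 57.2% of Suz12 peaks. All 3 lists held 322 members (29.1%), and none of them held 488 (44.0%). PRC1, PRC2 and H3K27me3 are known to lie together, so these overlaps follow the choice of members and no test was made of them.

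Across differentiation the members were found far more often in the replicate 2 lists of day 8 than in those of day 4. The wild-type day 8 list (6511 peaks, 40.5% at H3K27me3) overlapped 684 members (61.7%), and the mutant day 8 list of replicate 2 (7735 peaks, 31.6% at H3K27me3) 562 (50.7%). The mutant day 8 list of replicate 1 (3322 peaks, 13.1% at H3K27me3) overlapped 102 (9.21%), so in this share the mutant replicates lay further apart than the replicate 2 lists of the genotypes. The lists cover unlike lengths, 13.0 Mb for wild type and 5.38 Mb and 1.75 Mb for mutant replicates 2 and 1. Their median peak width was 1001 bp for wild type and 501 bp for each mutant list. The part of length and width in these shares was not tested. At day 4 the mutant lists overlapped 94 (8.48%, replicate 1) and 66 (5.96%, replicate 2) members, and the wild-type list, with 1000 peaks, 24 (2.17%). Of the merged Suz12 peaks 372 have the same start and end, within 2 bp, as a peak of the wild-type day 8 list, so those overlaps are not independent. In none of the 8 other single-library Suz12 lists were 368 members (33.2%) and 4254 others (93.6%) found.

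**Figure D2:**
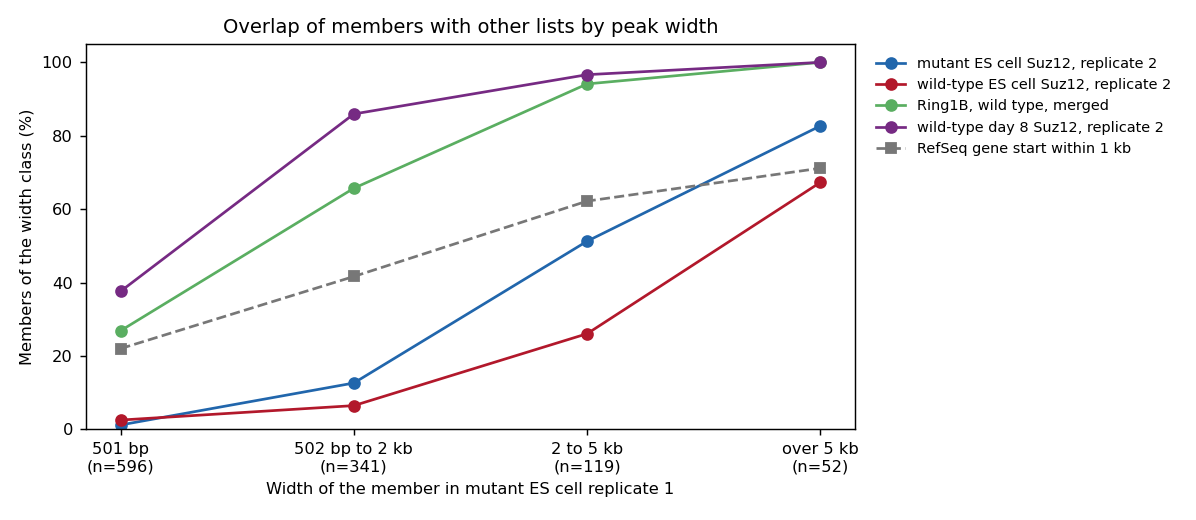
Share (%) of members of each width class that overlap 4 other deposited lists (solid lines) or have a listed RefSeq gene start within 1 kb (dashed line). All 5 lines rise from the 596 members of 501 bp to the 52 members above 5 kb.

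Members gathered in the widest H3K27me3 domains. They lay in 733 of the 11884 domains (6.17%), whose median width was 16716 bp against 4484 bp for domains without a member. A member was present in 35.4% of domains above 20 kb and in 1.16% of those up to 2 kb, and a wider domain offers more room for one. The domain with most members, 23, spans the HoxA cluster (chr6:52139800-52329263). The domains over HoxC (chr15:102894914-103157594) and HoxD (chr2:74642955-74781881) held 16 each, and that over HoxB (chr11:96223855-96385751) held 10.

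Chromosomes 11 and 8 carried a large part of the replicate 1 list. Chromosome 11 held 238 members (21.5%) and chromosome 8 held 125 (11.3%), against 24.4% and 19.1% of the others and 11.2% and 7.39% of the H3K27me3 peaks. The X chromosome held 7 members. The excess was not larger among members than among the other peaks. Genes of chromosomes 11 and 8 had a median log2 difference between mutant and wild-type ES cells of 0.02 each, and the relation of peak number to chromosome was not tested further.

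The 10 widest members found in all 3 ES cell lists lay at developmental regulators and at the PRC1 gene Cbx8. The widest, chr11:119034157-119049113, spans Cbx8, which encodes a PRC1 subunit that binds H3K27me3, and chr11:119050116-119060818 beside it has no gene start or span within 1 kb. Others lay at Ebf3 (chr7:137308687-137322529), a helix-loop-helix factor of neurons and muscle, at Pax7 (chr4:139820877-139833210), a regulator of neural crest and muscle stem cells, and at Tbx1 (chr16:18581490-18591520), a T-box factor of the pharyngeal arches. The Hox members were chr6:52223762-52236417 over Hoxa9 and Hoxa10, chr11:96278639-96290825 over Hoxb7 and Hoxb8 and chr11:96293488-96305224 over Hoxb5 and Hoxb6. The remaining 2 lay at Lhx5 (chr5:120430347-120439993) and Zfp503 (chr14:21982500-21991931). All 10 overlapped the merged Ring1B and Suz12 lists and both day 8 lists of replicate 2. Only the Zfp503 region, of these 10, lay outside the merged Ezh2 list.

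Wide members were also found in neither replicate 2 ES cell list. Wide ones lay at Msx1 (chr5:37820922-37829134), a homeobox factor of limb and face, at Hoxb3 (chr11:96340320-96346737) and at Nkx1-1 (chr5:33429333-33435227). Members at Olig2, a regulator of motor neurons and oligodendrocytes, at Zic2, Foxb2 and Onecut3 followed. The 10 widest of this kind all overlapped the merged Suz12 and Ring1B lists and both day 8 lists of replicate 2.

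A listed RefSeq gene start lay within 1 kb of 384 members (34.7%) and of 154 other peaks (3.39%). By width the share was 22.0% at 501 bp, 41.6% up to 2 kb, 62.2% at 2 to 5 kb and 71.2% above 5 kb. Away from listed starts, 519 members lay in a gene and 205 outside any annotated gene. Genes whose start is not listed, Gata6 and Hoxb3 among them, could not count here, so the shares near a start are lower limits. In all, 696 genes, 482 of them protein coding, were linked to a member, 421 through a start and 275 through their span because the table of starts does not hold them.

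Large shares of the lists of developmental transcription factors were linked, though most linked genes are on none of the lists. Of 39 Hox genes 34 (87.2%) were linked, of 85 other homeobox regulators 51 (60.0%), of 49 T-box, forkhead, Gata and Sox factors 31 (63.3%), of 59 basic helix-loop-helix and zinc finger factors 22 (37.3%) and of 54 secreted signals 20 (37.0%). Over all protein coding genes the share was 2.20%. These lists hold genes long known as Polycomb targets, so their share is a description. Linked signals included Shh, Ihh and Dhh, the 3 hedgehog ligands, and the BMP inhibitor Nog. None of 13 PRC2 subunit genes was linked, and 4 of 20 PRC1 genes were, Cbx8 and Bmi1 among them. Of 26 pluripotency genes Tbx3 alone was linked, of 25 imprinted genes 4 (Igf2, Phlda2, Grb10 and Gnas), and of 5 cell cycle inhibitor genes Cdkn2c alone, while Cdkn2a was not.

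**Figure D3:**
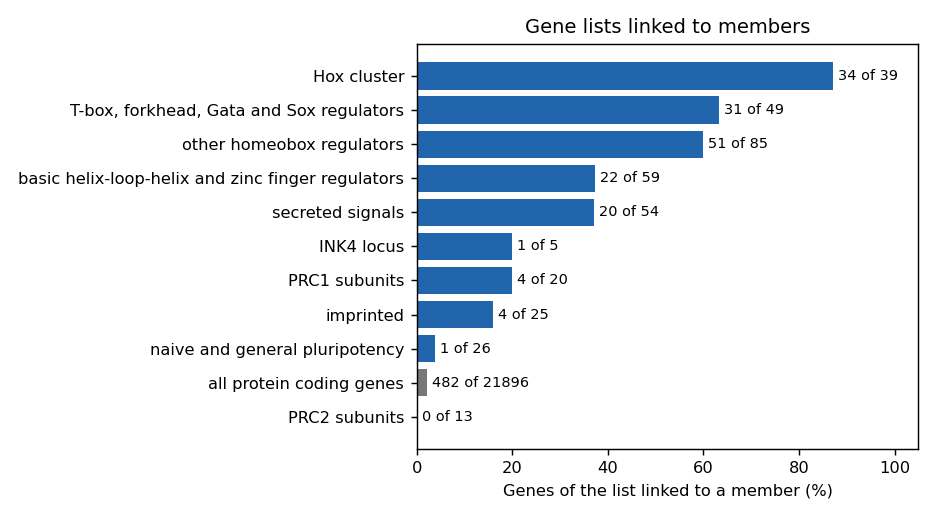
Share (%) of the genes of each list that are linked to a member, with counts beside the bars and all protein coding genes in grey. The Hox list stands at 34 of 39 and PRC2 subunits at 0 of 13.

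In the authors' deposited table the PRC2 target call was YES for 358 of the 364 linked genes that have one (98.4%), against 32.2% of all genes with a call. Of the 4004 genes with a call that were linked to any H3K27me3 peak, 3876 also carried YES, so the call goes with the rule and adds no support.

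Most linked genes were low in ES cells. Values for wild type and mutant were given for 346 linked genes, and 302 passed the filter on low RPKM (reads per kilobase of gene, scaled to library depth). A gene could pass through one group where it was high, so the 302 are not all members' genes. In wild-type ES cells 37.3% to 39.6% of the 346 reached 1 RPKM, against 78.2% to 79.3% of all genes. In mutant ES cells the range was 28.9% to 37.9% (all genes 76.3% to 78.0%). Some linked genes were high: Mt2, a metallothionein, had 426 ± 220 RPKM (SD, n = 3) in wild-type and 368 ± 137 in mutant ES cells, and Bub3, a mitotic checkpoint gene, 64.9 ± 13.0 and 68.6 ± 10.5.

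Library facts bear on all expression results. Depth recovered from the steps of the RPKM values ran from 5.01 to 28.5 M reads a library over both tables. Ezh2 itself was 23.6, 20.7 and 24.4 RPKM in mutant and 47.6, 62.5 and 37.2 RPKM in wild-type ES cells, a log2 difference of -1.04 ± 0.17 (SE, limma adjusted p = 0.037), and the call was lost when any of 5 of the 6 libraries was left out. Of the 8 ES cell markers all reached 1 RPKM in each ES cell library, and of the 12 feeder fibroblast markers 9 to 12 did, none was at 0 throughout an ES cell group, and the cells this RNA came from were not tested. At day 8, wild-type replicate 3 stood apart from replicates 1 and 2, with Pou5f1, the pluripotency factor Oct4, at 222 RPKM against 27.8 and 28.7. Summed log2 levels of the 8 ES cell markers ran from 19.6 to 45.8 over the wild-type and from 44.4 to 56.3 over the mutant day 8 libraries, and those of the feeder markers from 14.4 to 46.2 and from 10.9 to 41.6. In bulk RNA, fewer cells of a type and less RNA per cell cannot be told apart.

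In ES cells no linked gene passed the test between mutant and wild type. Of 302 linked genes tested 0 passed in either direction by limma with Benjamini-Hochberg adjustment, and 27 (8.94%, against 6.04% of all genes) had an unadjusted p under 0.05, 13 higher and 14 lower. Over all 14180 genes 0.0635% were called higher and 0.0282% lower. The median log2 difference was -0.09 over linked genes, -0.07 over 3354 other genes linked to an H3K27me3 peak and 0.00 over all genes. Tbx3, a T-box factor of the pluripotency network, was 22.8, 26.4 and 20.7 RPKM in mutant and 11.1, 9.65 and 4.50 RPKM in wild-type libraries, without overlap (log2 difference 1.44 ± 0.43, adjusted p = 0.34). Cdkn2c, an INK4 inhibitor of the cell cycle, was 0.864, 0.760 and 1.07 RPKM in mutant against 0.485, 0.505 and 0.707 RPKM in wild type and did not pass.

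At day 4, 2 of 302 linked genes rose in mutant embryoid bodies and 0 fell, with 0.0282% of all genes called higher and 0.0212% lower, and 21 linked genes (6.95%, against 4.66% of all) had an unadjusted p under 0.05. Among 3354 other genes linked to an H3K27me3 peak 0.0298% were called higher and 0% lower. En2, a homeobox factor of the midbrain and hindbrain, was 2.48, 4.56 and 3.45 RPKM in mutant and 0.578, 0.491 and 1.13 RPKM in wild-type libraries (log2 difference 1.37 ± 0.22, adjusted p = 0.030). Barx1, a homeobox factor of the stomach and jaw, was 1.61, 1.59 and 1.84 RPKM against 0.480, 0.428 and 0.142 RPKM (0.998 ± 0.15, adjusted p = 0.013). Every mutant library lay above every wild-type library for both. The count was 0 when only the groups compared were fitted, 0 without wild-type replicate 2, without mutant replicate 2 or without mutant replicate 3, 1 without wild-type replicate 1 and 5 without wild-type replicate 3. Here same-numbered libraries deviated together, and with the replicate block Tbx3 joined, at 4.25, 7.64 and 6.29 RPKM in mutant and 0.239, 0.181 and 0.748 RPKM in wild-type libraries (log2 difference 2.34, adjusted p = 0.042 with and 0.065 without the block).

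At day 8, 7 of 302 linked genes (2.32%) rose in mutant embryoid bodies and 1 (0.331%) fell, beside 1.30% of all genes called higher and 0.212% lower. Among 3354 other genes linked to an H3K27me3 peak 2.33% were called higher and 0.388% lower, near the shares of the linked genes. The median log2 difference was -0.12 over linked genes, -0.02 over those other genes and -0.02 over all genes. Pde8a, a cyclic AMP phosphodiesterase, was 5.45, 5.51 and 9.22 RPKM in mutant and 0.649, 0.608 and 2.42 RPKM in wild-type libraries (log2 difference 1.85 ± 0.33, adjusted p = 0.017). Foxq1, a forkhead factor, was 3.40, 2.59 and 4.63 RPKM against 0.874, 1.02 and 0.355 RPKM (1.37 ± 0.26, adjusted p = 0.021). Zic1, a zinc finger factor of the neural plate, was 3.13, 1.26 and 0.883 RPKM against 0.0523, 0.0715 and 0.119 RPKM (1.27 ± 0.28, adjusted p = 0.042). These 3 did not overlap between genotypes, and Zic1 was near the floor in wild type. Of the 6 fits that left out 1 library, the Zic1 call was lost in 5 and those of Pde8a and Foxq1 in 3 each.

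Vax2, a homeobox factor of the ventral eye, and Vax2os, which overlaps it in antisense, share the member chr6:83710598-83711273, and without a stated use of strand their reads cannot be told apart. Vax2 was 1.04, 2.72 and 1.31 RPKM in mutant and 0.138, 0.0945 and 0.188 RPKM in wild-type libraries (log2 difference 1.19 ± 0.21, adjusted p = 0.015). Bhlhe41, a helix-loop-helix repressor of the circadian clock, fell by 1.14 on the log2 scale, from 6.90, 5.59 and 4.49 RPKM in wild type to 2.61, 1.78 and 1.64 RPKM in mutant (adjusted p = 0.033). Of the 6 fits that left out 1 library, the Bhlhe41 call was lost in 4 and that of Vax2 in 2. The other 2 rises were Sec14l2 and Dmrt3, named here because the count is small. All 8 calls were lost (0 left) when only the groups compared were fitted. Calls also depended on wild-type replicate 3: without it 20 linked genes were higher and 43 lower. Without wild-type replicate 1 or 2, 1 and 2 genes were called, without mutant replicate 3 it was 3, and without mutant replicate 1 it was 15. Summed log2 levels of 8 endoderm markers were 24.1 to 39.8 in mutant and 10.6 to 21.5 in wild-type day 8 libraries, without overlap, and 4 of the 8 (Afp, Amn, Apob and Cubn) rose. The part of these, the ES cell and the feeder markers in the result was not tested.

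Between wild-type ES cells and day 8 embryoid bodies, linked genes moved upward more often than downward. Of 302 tested 96 (31.8%) rose and 26 (8.61%) fell, beside 14.7% and 14.4% of all genes, and the median log2 difference was 0.46 against 0.01. Linked genes had little room to fall, with library medians of 0.518 to 0.616 RPKM in wild-type ES cells against 6.14 to 6.42 over all genes. Some, such as Prdm6 (0.0600, 0 and 0.0170 RPKM in ES cells), passed the filter only with day 8 libraries. The part of both limits in the excess of rises was not tested. Among the 3354 other genes linked to an H3K27me3 peak, by a start or by span where no start is listed, 20.9% rose and 14.6% fell. Gata6, a factor of endoderm and heart, was 1.14, 0.777 and 0.540 RPKM in ES cells and 45.6, 45.5 and 1.68 RPKM at day 8 (log2 difference 3.32 ± 0.86, adjusted p = 0.011). Irx3, a homeobox factor, went from 0.198, 0.219 and 0.562 RPKM to 17.5, 20.8 and 3.45 RPKM (3.21 ± 0.64, adjusted p = 0.0027). Day 8 replicate 3 was the lowest of its group for both genes, and the Gata6 call was lost without day 8 replicate 1 or 2.

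The receptor gene Fgfr3 went from 1.36, 0.818 and 0.311 RPKM to 36.3, 30.5 and 1.70 RPKM (log2 difference 3.05 ± 0.85, adjusted p = 0.016). Its call was lost without day 8 replicate 1 or 2. The orphan receptor gene Gprc5c went from 1.92, 2.04 and 1.19 RPKM to 25.6, 25.8 and 15 RPKM (3.06 ± 0.48, adjusted p = 0.00069). Cbx8, in the widest member, went from 0.485, 0.297 and 1.24 RPKM to 5.24, 5.5 and 1.40 RPKM (1.5 ± 0.32, adjusted p = 0.0042), and Bmi1 rose as well. Of 17 linked T-box, forkhead, Gata and Sox factors tested 7 rose and 1 fell, of 26 other homeobox factors 9 rose and 3 fell, and of 8 Hox genes 3 rose (Hoxb2, Hoxb3 and Hoxb4) and Hoxb9 fell. Gnas, an imprinted gene of G protein signalling, went from 16.9, 14.8 and 22.0 RPKM to 126, 111 and 43.3 RPKM (2.20 ± 0.47, adjusted p = 0.0038).

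Falls included Inhbb, a subunit of activin and inhibin, from 6.92, 4.03 and 14.1 RPKM to 0, 0 and 0.150 RPKM (log2 difference -3.01 ± 0.45, adjusted p = 0.00049), and Nkx6-2, from 6.84, 5.26 and 4.25 RPKM to 0.398, 0.251 and 1.56 RPKM (-1.95 ± 0.43, adjusted p = 0.0050). Inhbb is listed at 0 in 2 of the day 8 libraries. Without day 8 replicate 3, 125 linked genes rose and 30 fell, while the counts were 44 and 14 without day 8 replicate 1, 45 and 18 without day 8 replicate 2, and 56 and 15 without ES cell replicate 1. The summed feeder markers ran from 27.5 to 68.9 in wild-type ES cells, from 11.1 to 12.3 at day 4 and from 14.4 to 46.2 at day 8. All 8 ES cell markers fell (median log2 difference -3.57), while 5 of 8 endoderm, 4 of 6 cardiac muscle and 4 of 7 blood and endothelial markers rose, and the part of these cell types in the changes of linked genes was not tested. Fitting only these groups gave 53 calls in place of 122.

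No linked gene passed the test for GSK343 in ES cells. Of 310 linked genes tested 0 passed in either direction by limma, as for all 14016 genes (0% higher and 0% lower), and 34 linked genes (11.0%, against 4.77% of all) had an unadjusted p under 0.05, 8 higher and 26 lower. Phlda2, an imprinted gene of placental growth, was 9.61 and 11.7 RPKM with GSK343 and 19.4 and 21.2 RPKM with DMSO (log2 difference -0.88 ± 0.17, adjusted p = 0.27). At day 4 again 0 of 310 passed by limma, with 46 (14.8%, against 10.3% of all genes) at an unadjusted p under 0.05, beside 0.499% of all genes called higher and 0.128% lower. Tbx3 was 4.76 and 2.79 RPKM with GSK343 and 1.07 and 0.700 RPKM with DMSO, without overlap (1.32 ± 0.27, adjusted p = 0.069), and Bmi1, a PRC1 subunit, was 6.45 and 4.05 RPKM against 2.28 and 1.30 RPKM (1.16 ± 0.33, adjusted p = 0.18). With the replicate block 8 linked genes rose at day 4, Tbx3 (limma adjusted p = 0.029) and Bmi1 (adjusted p = 0.011) among them. The share of all genes with the block was not counted, and 2 pairs are few to judge the pairing (correlation 0.625).

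By day 8 linked genes were mostly lower with GSK343. Of 310 tested 143 (46.1%) fell and 49 (15.8%) rose, beside 16.0% of all genes called lower and 15.6% higher. Here, as for mutant against wild type, fell and rose mean lower and higher than the control of the same day, not change over time. The median log2 difference was -0.46 over linked genes and 0.00 over all. Among 3337 other genes linked to an H3K27me3 peak, by a start or by span where no start is listed, 27.2% fell and 17.6% rose. Prdm6, a regulator of smooth muscle, was 0.524 and 0.0414 RPKM with GSK343 and 36.4 and 29.5 RPKM with DMSO (log2 difference -4.74 ± 0.18, adjusted p = 1.4e-07). It passed the filter only with the DMSO day 8 libraries, and genes that pass so can be called lower here but hardly higher. Their part in the excess of falls was not tested. Igf2, an imprinted growth factor, was 3.78 and 6.62 RPKM against 116 and 173 RPKM (-4.56 ± 0.26, adjusted p = 1.4e-06). Fgfr3 was 0.539 and 0.438 RPKM against 24.3 and 38.1 RPKM (-4.40 ± 0.22, adjusted p = 7.4e-07). Cdh11, a cadherin of mesenchyme, was 0.862 and 0.421 RPKM against 24.4 and 28.5 RPKM, and Tbx2, a T-box factor of heart and limb, 0.191 and 0.0756 RPKM against 14.1 and 19.9 RPKM. No GSK343 library reached a DMSO library in any of these 5 genes.

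The falls covered several classes of regulators, as they did for the whole lists, linked or not. Of 11 linked Hox genes tested 8 fell and 0 rose (whole list 11 of 15 fell), among them Hoxb3, at 0.0366 and 0.0579 RPKM with GSK343 and 5.12 and 4.52 RPKM with DMSO. Only these 11 of 30 linked Hox genes with listed values passed the filter. Hoxb3 passed through the DMSO day 8 libraries alone, with at most 0.370 RPKM elsewhere in this set. Such a gene can be called lower here but hardly higher, and the counts for linked and whole lists share this limit. Of 16 linked secreted signals 12 fell and 1 rose (whole list 21 of 42 fell), and Bmp2, a bone morphogenetic protein, was 1.30 and 0.181 RPKM against 21.9 and 15 RPKM. Of 18 T-box, forkhead, Gata and Sox factors 10 fell and Sox1 rose (whole list 16 of 30 fell), and Gata6 was 4.41 and 0.624 RPKM against 29.8 and 30.2 RPKM. At day 4 Cbx8 was 1.20 and 0.801 RPKM with GSK343 and 1.10 and 0.466 RPKM with DMSO. At day 8 it was 1.40 and 1.59 RPKM with GSK343 and 8.48 and 8.60 RPKM with DMSO (log2 difference -1.94 ± 0.18, adjusted p = 3.7e-05). Among linked helix-loop-helix and zinc finger factors tested, 11 in all, 5 rose and 3 fell (whole list 10 and 15 of 35).

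The largest rises with GSK343 at day 8 included Otx2, Pou3f1 and Mt2. Otx2, a homeobox factor of epiblast and forebrain, was 65.1 and 51.5 RPKM with GSK343 and 8.00 and 7.52 RPKM with DMSO (log2 difference 2.75 ± 0.30, adjusted p = 1.0e-04). Pou3f1, a POU factor of neural fate, was 41.5 and 14.2 RPKM against 3.30 and 3.37 RPKM. Mt2 was 313 and 691 RPKM against 84.0 and 91.5 RPKM, and its paralog Mt1 may share reads with it. Pax6, a factor of eye and brain, was 0.859 and 0.713 RPKM against 0.396 and 0.132 RPKM (0.51 ± 0.14, adjusted p = 0.017), and that call was lost without DMSO replicate 2 or GSK343 replicate 1.

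**Figure D4:**
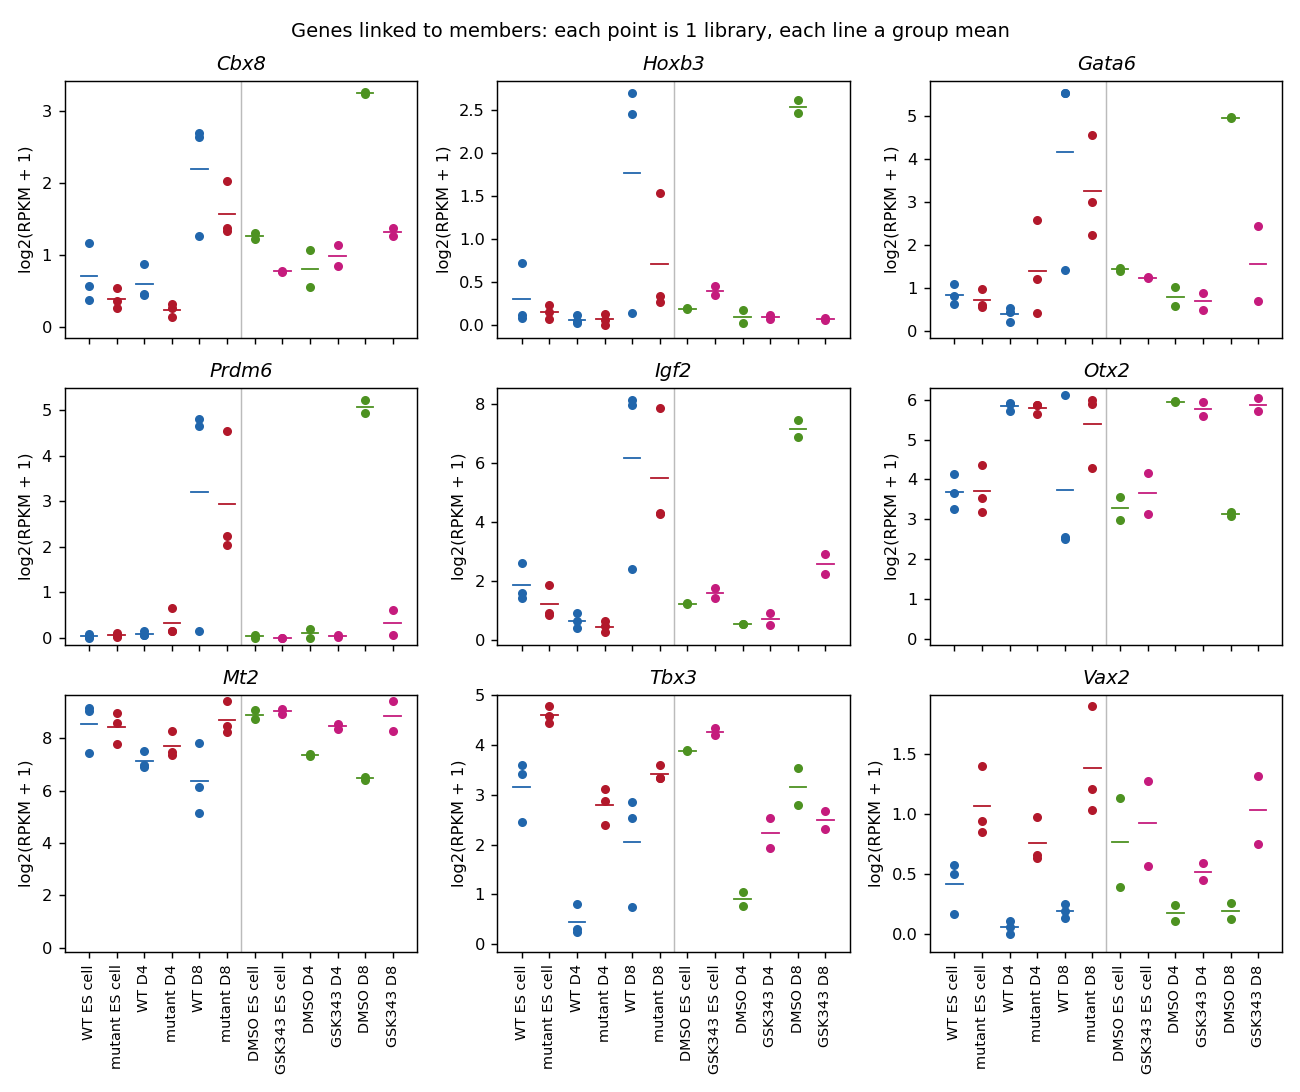
RPKM of 9 linked genes on a log2(RPKM + 1) axis in each library (points) with group means (lines), wild type in blue, mutant in red, DMSO in green and GSK343 in magenta, with the 2 tables separated by a grey line. The wild-type day 8 point for Gata6 at 1.68 RPKM is replicate 3, and the DMSO and GSK343 day 8 points of Gata6, Igf2 and Otx2 do not overlap.

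Markers of cell types moved with this comparison. Summed log2 levels of the 8 ES cell markers were 54.0 to 58.7 with GSK343 and 28.0 to 29.5 with DMSO at day 8, and all 8 rose. Those of the 12 feeder fibroblast markers were 12.7 to 17.2 against 32.3 to 42.6, with 3 to 5 and 7 to 9 of them at 1 RPKM or more. Their sums in ES cells were 44.0 to 52.2 with GSK343 and 37.7 to 41.8 with DMSO. At day 4 they were 11.4 to 12.1 and 11.7 to 12.2. The cells that gave this RNA at day 8 were not tested. For 8 endoderm markers the day 8 sums were 3.92 to 12.8 against 25.5 to 31.0, for 7 blood and endothelial markers 6.65 to 6.97 against 20.5 to 26.4, and for 6 cardiac muscle markers 6.32 to 8.83 against 14.5 to 17.8. Hbb-y was at 0 in both GSK343 libraries. The 5 neural markers measured summed to 12.4 to 14.6 with GSK343 against 7.85 to 7.88 with DMSO, and 3 of them (Pax6, Sox1 and Tubb3) rose. The part of these markers' cell types in the falls and rises of linked genes was not tested. Without DMSO replicate 1, 74 linked genes fell and 32 rose, and without DMSO replicate 2 it was 75 and 27.

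**Figure D5:**
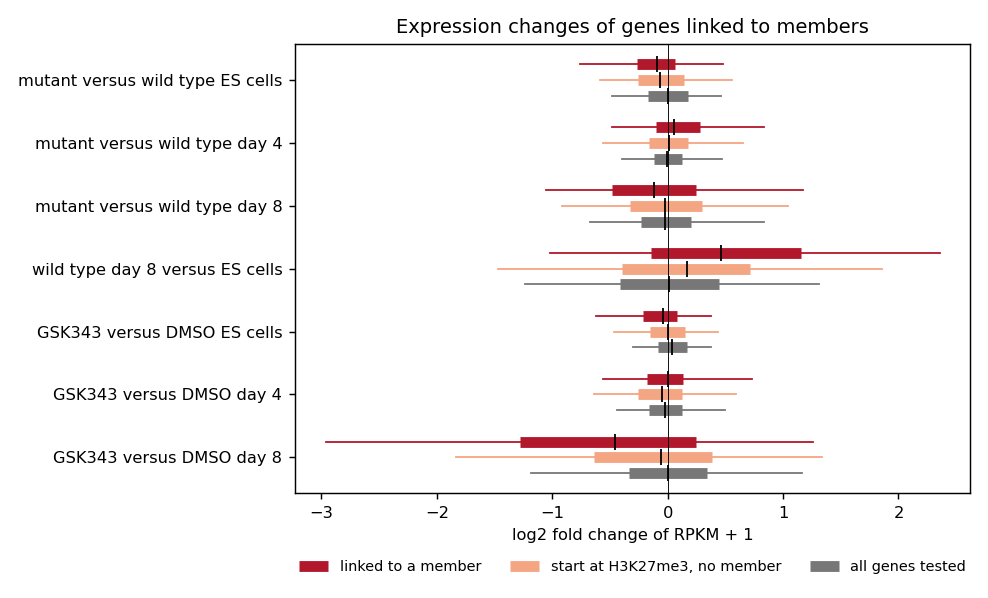
Log2 fold changes of RPKM + 1 in the 7 comparisons for genes linked to a member (red), other genes linked to an H3K27me3 peak (orange) and all genes tested (grey), as median (tick), quartiles (thick bar) and 5th to 95th percentile (thin line). The orange group, whose label names a start, also holds genes linked by span where no start is listed. The red median lies at -0.46 for GSK343 against DMSO at day 8 and at 0.46 for wild-type day 8 against ES cells.

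The linked genes called in both day 8 comparisons, which share no libraries, were Bhlhe41, Pde8a, Vax2 and Vax2os, all in the same direction in each. The number called in both over all genes was not counted, so these 4 of 287 have no background beside them and are a description only. The log2 difference of Pde8a was 1.85 in mutant and 1.56 ± 0.35 with GSK343 (adjusted p = 0.0071), and that of Bhlhe41 -1.14 and -1.16 ± 0.15 (adjusted p = 0.00026). Vax2 differed by 1.19 and 0.84 ± 0.28 (adjusted p = 0.045). Among the 287 linked genes tested in both, 218 (76.0%) had the same sign, beside 73.9% of all genes, which is near the background. The Pde8a member (chr7:81212532-81213032) and the Bhlhe41 member (chr6:145865887-145866387) both have the smallest width, 501 bp.

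Genes at the widest members followed the same direction at day 8 with GSK343. Of 73 tested genes linked to members above 2 kb 45 (61.6%) fell and 10 (13.7%) rose, beside 16.0% and 15.6% of all genes. Of 60 linked through members found again in mutant replicate 2, 36 fell and 6 rose, and of 16 linked through members in all 3 ES cell lists 10 fell and 1 rose. Between wild-type ES cells and day 8, 32 of 69 tested genes at members above 2 kb rose (46.4%) and 7 fell (10.1%), beside 14.7% and 14.4% of all genes. The limits of the filter and of low starting levels given above hold for these counts too. In the mutant ES cells themselves, the same 69 genes had a median log2 difference of -0.14, and 0 were called.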

How the data were processed

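RNA-seq values are the authors' deposited RPKM per library, in 30 libraries compared here, and 11 libraries of replated cells were not used here. Peak positions on mm10 are as the authors deposited them. The submitters' processing notes name STAR 2.5.3, featureCounts 1.6.1 and edgeR for RNA, Bowtie2 2.3.4.3 for CUT&RUN and HOMER 4.10.3 for both, and settings were not found in the sources used here. The number of columns of per-sample values left unmapped was 0. RPKM times gene length sums to 1 M in each DMSO and GSK343 library and to 0.811 to 2.23 M in the wild-type and mutant libraries, so the latter carry a further scaling by the authors. Low values were whole multiples of 1 read (within 0.02 of a read for 100% of them).

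Overlap was at least 1 bp. A gene was linked where a RefSeq start lay within 1 kb of a member, or its span where no start is listed. Genes with at least 0.5 RPKM in 3 libraries (2 for GSK343) were tested with limma 3.58.1 in R 4.3.3 on log2(RPKM + 1) values computed from the deposited RPKM, a scale that understates changes of low genes. Each table gave 1 linear model over its 6 groups, with moderated, trended variances and Benjamini-Hochberg adjustment over all genes (threshold 0.05), and the code was tested on simulated data. Named genes were the 5 largest rises and falls among linked genes past the threshold with at least 1 RPKM and no overlap between groups, leaving out predicted, RIKEN and histone genes, the linked gene of smallest p per list and a few regulators followed throughout. Named regions were the 10 widest found in all 3 ES cell lists and in neither replicate 2 list. Genes outside this rule were chosen after their values were seen. The members and lists were chosen with earlier results of these data known. Same-numbered libraries counted as paired where every correlation of their deviations from group means exceeded 0.1. This held for mutant and wild type at day 4 (0.637, 0.290 and 0.806) but not in ES cells or at day 8. With GSK343 the correlations also exceeded 0.1, at 0.666 in ES cells, 0.625 at day 4 and 0.424 at day 8. There the 2 pairs of a stage give the same value, so they were taken as too few to count as paired. Base composition of the peaks themselves was not analysed here. Some named regions and genes are not reported here.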

Additional observations from a re-analysis of the deposited data

How the results depend on the processing

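The number of members was 1095 when at least 50% of the Suz12 peak had to lie in H3K27me3, 770 within the wider peaks of the list and 403 when members were taken from mutant replicate 2. Their shares in the other mutant and the wild-type ES cell list moved to 19.4% and 11.9% within the wider peaks, to 49.9% and 18.4% with members from replicate 2, to 2.62% and 3.34% when at least 50% of the member had to overlap, and to 16.4% and 11.2% when a peak within 1 kb counted.

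Leaving out 1 library gave 0 calls in both ES cell comparisons and for GSK343 at day 4, 0 to 5 at day 4 and 1 to 63 at day 8 for mutant, 58 to 155 for wild-type day 8 against ES cells and 102 to 184 for GSK343 at day 8. With GSK343 this leaves 1 library in an arm, assumed to vary like the other groups. Members also in mutant replicate 2 are fewer and left 0 calls for mutant at day 4, 4 at day 8, 28 for wild-type day 8 and 42 for GSK343 at day 8. Links by a start alone, added after seeing the data, left 1 for mutant at day 4, 63 for wild-type day 8 and 108 for GSK343 at day 8. Fitting only the groups compared gave 0 for mutant at day 4 and at day 8, 53 for wild-type day 8 and 7 for GSK343 at day 4. A pseudocount of 0.1 gave 1 and 5 for mutant at day 4 and day 8 and 3 for GSK343 at day 4. Centring libraries on the median gene, also added after seeing the data, gave 1 for mutant and 1 for GSK343 at day 4, 83 rises and 31 falls for wild-type day 8 and 50 rises and 140 falls for GSK343 at day 8. Except for fewer genes or samples, the cause was not tested.

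With the replicate block the calls were 0 in ES cells, 3 at day 4 and 13 at day 8 for mutant, 147 for wild-type day 8, and 0, 8 and 206 for GSK343 in ES cells, at day 4 and at day 8. Numbers pair the libraries only at day 4 of mutant and wild type, so the other blocked counts rest on a shared number. Among named genes the sign changed in 38 values, of genes called in neither fit (T in mutant at day 4 and Eed and Suz12 in ES cells among them), and in 0 called values. In all 1404 values kept their side of the threshold, 92 dropped below it and 32 rose past it.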
